A study of Mus musculus with 6 samples.

Results

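Fgd5, Robo4, Pdzk1ip1, Ctnnal1, Sult1a1, Vwf, Neo1, Gda, Trpc6 and Eya2 are 10 genes known for their enrichment in long-term hematopoietic stem cells (LT-HSCs), and their transcripts were compared between mouse stem and progenitor cells with a homozygous and with a heterozygous deletion of the H3K4 methyltransferase Setd1b. The members were named as genes that are not themselves regulators, although Eya2 also encodes a coactivator. No measured value entered the choice, but earlier results of the same data were known when the list was drawn up. They are 10 of the 45706 genes counted, and all 10 passed the filter on low counts, which left 15184 genes for testing.

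RNA of the LSK fraction of bone marrow (lineage-negative cells positive for Sca-1 and c-Kit), which contains stem cells together with multipotent progenitors, was sequenced from 6 male C57BL/6 mice, with 1 library per mouse. The 3 cKO mice (AI02, AI55 and AH74) are labelled Setd1b HOM (FD/FD; RC/+). The 3 Ctrl mice (AI03, AI54 and AI56) are heterozygous, each with the wild-type allele beside 1 conditional allele. The authors describe the groups as littermates, but which mice shared a litter is not given. Mice of both groups carried 1 copy of Rosa26-Cre-ERT2 and were given tamoxifen by gavage, per the labels 4.5 mg a day for 4 days and, after 3 days without, for 2 more days, and bone marrow was taken 3 days after the last dose. The paper instead describes its tamoxifen inductions as 5 doses of 4.5 mg. AH74 was 17 weeks old and the other 5 mice were 16 weeks old. Cre driven from the Rosa26 locus acts in almost all tissues, so that the deletion is not limited to blood cells, and the Ctrl mice lose 1 copy of Setd1b and share the exposure to Cre and tamoxifen. The comparison asks which stem cell genes differ in LSK cells when the second copy is also lost.

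LT-HSCs are the rare cells at the top of the blood lineages that sustain blood formation over a lifetime and can rebuild it after transplantation. They stay mostly quiescent, lie within the LSK gate, and are known to hold more of the transcripts described here than multipotent progenitors do. Several of these genes have served to mark stem cells in reporter mice, among them Fgd5, Ctnnal1 and Vwf.

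Between 13003573 and 21277519 reads were counted on genes per library. Levels are given in CPM, counts scaled to a common library size with TMM factors, and differences as log2 fold changes of cKO minus Ctrl. Setd1b itself was at 213 ± 16.2 CPM in Ctrl and 292 ± 21.1 CPM in cKO (SD, n = 3 each), which is a difference of 0.46 on the log2 scale (SE 0.073, adjusted p = 0.0015 with edgeR's quasi-likelihood test and Benjamini-Hochberg adjustment, as for all adjusted p-values here). The conditional allele loses only exon 5, and counts summed over a gene do not show a single exon, so these totals check nothing about the deletion, and cKO stands here for the libraries labelled as homozygous. Of the markers of the gate, Kit was at 452 ± 59.6 CPM in Ctrl and 440.0 ± 24.7 CPM in cKO, and Ly6a, which encodes Sca-1, at 44.4 ± 10.4 and 38.1 ± 2.04 CPM. Of the lineage markers that the sort was meant to remove, Cd3e and Ly6g had at most 2 counts in any library, whereas Itgam, which encodes CD11b, was at 37.7 ± 2.18 CPM in Ctrl and 50.7 ± 7.12 CPM in cKO and rose by 0.43 on the log2 scale (adjusted p = 0.019). Itgam passed the threshold in 9 of 14 other settings of the analysis. The header of the count table carries library numbers that fall into 2 runs, read here as 2 library series, the first with AI02, AI55 and Ctrl AI03, the second with AH74 and Ctrl AI54 and AI56. The labels do not state such series.

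Of the 10 LT-HSC genes, 5 rose in cKO (Fgd5, Sult1a1, Pdzk1ip1, Trpc6 and Ctnnal1) and 0 fell. The fitted increases ran from 1.42-fold for Ctnnal1 to 2.89-fold for Fgd5. Across all genes tested, 3.88% were higher and 3.79% lower in cKO (589 and 575 genes; 523 and 842 when a trend with gene length was removed), and 7.67% passed in either direction. No member was lower with DESeq2 or at an unadjusted p under 0.05, whereas 6 of 10 were higher at that level, against 22.9% of all genes in either direction. The median log2 fold change of the 10 members was 0.56, beside 0.00023 for all genes. In bulk RNA, a larger share of cells that express a gene and more of its RNA per cell cannot be told apart. The authors report that cell composition within the LSK fraction of cKO mice was at this time largely like that of controls, without showing data. Their qRT-PCR in sorted subsets of LSK cells covered Klf1, Mpo and Ighm, none of which is a member. Leaving out Ctrl mouse AI56 or cKO mouse AH74 left 3 members higher, in both cases Fgd5, Pdzk1ip1 and Trpc6.

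**Figure D1:**
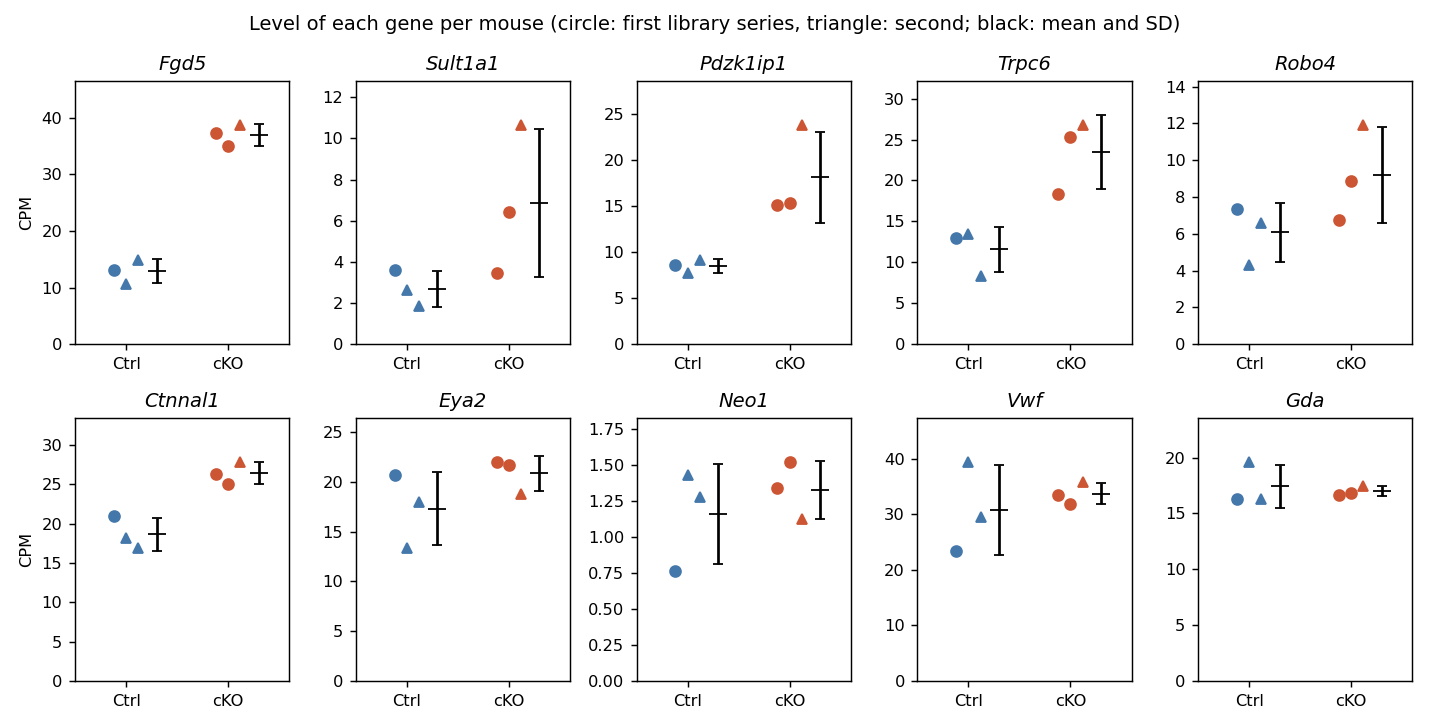
Level in CPM (vertical axis, starting at 0, with its own scale in each panel) of the 10 genes in each of the 3 Ctrl (blue) and 3 cKO (orange) mice, with the first library series as circles, the second as triangles, and mean and SD in black. The groups are apart for Fgd5, Pdzk1ip1, Trpc6 and Ctnnal1 and overlap for the other 6 genes, and AH74, the cKO triangle, is the highest cKO mouse for 8 of the 10.

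The sequences around the start sites are shown because Setd1b works in a complex with a protein that binds unmethylated CG dinucleotides, and because these genes differ widely in how many they carry. RefSeq promoters (GRCm38.p6, from 250 bases before to 50 bases after the start of transcription) were found for 8 of the 10 members. Capitals mark each CG, and all sequences run 5′ to 3′ on the strand of the gene. The first 5 belong to the genes that rose, in order of their fold change, and the last to Neo1, which did not pass the test and has the most CG of the 8.
Fgd5, chr6:91978715-91979014, plus strand: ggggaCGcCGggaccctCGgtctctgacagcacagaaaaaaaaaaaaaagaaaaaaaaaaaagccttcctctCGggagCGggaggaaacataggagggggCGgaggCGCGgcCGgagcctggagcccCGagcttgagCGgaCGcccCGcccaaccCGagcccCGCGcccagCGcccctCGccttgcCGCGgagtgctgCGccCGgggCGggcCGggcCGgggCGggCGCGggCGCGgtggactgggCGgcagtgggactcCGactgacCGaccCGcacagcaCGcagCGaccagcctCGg
Sult1a1, chr7:126676369-126676668, minus strand: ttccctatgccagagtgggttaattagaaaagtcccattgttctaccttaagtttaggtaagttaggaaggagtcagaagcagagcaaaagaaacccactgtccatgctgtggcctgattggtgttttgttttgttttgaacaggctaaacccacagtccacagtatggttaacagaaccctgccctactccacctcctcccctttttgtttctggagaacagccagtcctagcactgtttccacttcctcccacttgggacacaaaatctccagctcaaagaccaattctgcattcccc
Pdzk1ip1, chr4:115088458-115088757, plus strand: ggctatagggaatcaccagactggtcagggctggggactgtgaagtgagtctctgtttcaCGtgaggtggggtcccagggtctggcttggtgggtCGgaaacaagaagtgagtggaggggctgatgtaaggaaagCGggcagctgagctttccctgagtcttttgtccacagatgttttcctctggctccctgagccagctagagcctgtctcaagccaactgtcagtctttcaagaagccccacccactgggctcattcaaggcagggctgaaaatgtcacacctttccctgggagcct
Trpc6, chr9:8543892-8544191, plus strand: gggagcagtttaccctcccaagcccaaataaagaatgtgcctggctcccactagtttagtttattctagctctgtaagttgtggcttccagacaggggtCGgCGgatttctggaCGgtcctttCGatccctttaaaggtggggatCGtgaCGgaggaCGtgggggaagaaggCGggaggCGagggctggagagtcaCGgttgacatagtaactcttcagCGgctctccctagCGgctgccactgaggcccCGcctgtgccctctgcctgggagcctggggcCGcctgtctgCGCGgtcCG
Ctnnal1, chr4:56865162-56865461, minus strand: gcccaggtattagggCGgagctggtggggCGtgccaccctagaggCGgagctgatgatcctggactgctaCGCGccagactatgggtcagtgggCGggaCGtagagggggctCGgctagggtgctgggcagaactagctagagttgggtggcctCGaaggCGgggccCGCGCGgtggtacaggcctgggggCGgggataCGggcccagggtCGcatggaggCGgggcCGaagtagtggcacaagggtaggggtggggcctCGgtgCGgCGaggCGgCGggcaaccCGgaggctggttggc
Neo1, chr9:59036392-59036691, minus strand: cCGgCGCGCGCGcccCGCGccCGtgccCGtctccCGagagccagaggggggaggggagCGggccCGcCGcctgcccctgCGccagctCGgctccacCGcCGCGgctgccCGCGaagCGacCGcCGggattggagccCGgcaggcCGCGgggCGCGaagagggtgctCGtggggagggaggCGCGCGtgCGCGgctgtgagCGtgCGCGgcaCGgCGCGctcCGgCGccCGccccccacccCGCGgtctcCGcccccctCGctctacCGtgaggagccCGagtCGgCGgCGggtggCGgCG
The 5 genes that rose ran from 0 to 37 CG, within a range of 0 to 54 over the 8 members. Fgd5 has 37 CG, Ctnnal1 24, Trpc6 17, Pdzk1ip1 3 and Sult1a1 0. Neo1 has 54, Gda 9 and Robo4 2. Over the promoters of 9846 genes tested, the median is 21 and the quartiles are 13 and 29, so that Fgd5 and Neo1 lie above the upper quartile and Sult1a1, Robo4, Pdzk1ip1 and Gda below the lower. A short search on both strands looked for letters bound by blood cell factors. GATAA occurs only in the Gda promoter among the 8 (16.0% of the promoters of genes tested have it), and TGTGGT, the RUNX core (12.8%), and TATAAA (6.74%) occur in none. GGAAG, the ETS core (76.2%), is found in Fgd5, Sult1a1, Trpc6 and Robo4, and CANNTG, the E-box (62.9%), in Pdzk1ip1, Sult1a1, Robo4 and Gda. The Pdzk1ip1 promoter alone has 4 E-boxes. No match overlapped one of another motif. A match of letters does not show that a factor binds.

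Among the signalling genes, Fgd5 showed the largest change of the 10. It encodes an exchange factor that loads the small GTPase Cdc42 with GTP (ENSMUSG00000034037, chr6:91978878-92076004 in mm10, plus strand). Fgd5 was measured at 13.1, 10.7 and 14.8 CPM in Ctrl mice AI03, AI54 and AI56, and at 37.3, 34.9 and 38.7 CPM in cKO mice AI02, AI55 and AH74, an order of mice that is kept below. Every cKO mouse was more than 20 CPM above every Ctrl mouse, and the cKO mice lay close together. The log2 fold change was 1.53 (SE 0.13, 95% interval 1.26 to 1.80, adjusted p = 2.7e-06), which ranked 65 from the top of all 15184 genes. The exact permutation test of 3 against 3 mice gave its smallest possible two-sided p of 0.1 for Fgd5, as for the other 3 genes without overlap.

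Trpc6, a cation channel of the plasma membrane that opens in response to diacylglycerol (ENSMUSG00000031997, chr9:8544196-8680565, plus strand), also rose. Trpc6 levels were 12.9, 13.4 and 8.38 CPM in Ctrl and 18.4, 25.3 and 26.8 CPM in cKO. The groups did not overlap, with AI56 the lowest Ctrl mouse and AI02 the lowest cKO mouse. The fitted difference was 1.02 on the log2 scale (SE 0.18, interval 0.63 to 1.40, adjusted p = 0.0028).

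Robo4, a guidance receptor of the Roundabout family known from endothelium and from the homing of stem cells to their niche (ENSMUSG00000032125, chr9:37401897-37414023, plus strand), did not pass the test. Robo4 was at 7.35, 4.29 and 6.59 CPM in Ctrl and at 6.77, 8.89 and 11.9 CPM in cKO. AI02 lay below the highest Ctrl mouse, while AH74 was the highest of all. Its log2 fold change of 0.61 (SE 0.24, interval 0.097 to 1.13) had an unadjusted p of 0.023 and an adjusted p of 0.14. With no filter on low counts the adjusted p was 0.047.

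Neo1, the neogenin receptor for netrins and repulsive guidance molecules (ENSMUSG00000032340, chr9:58874679-59036441, minus strand), was the least abundant member, with 10 to 30 counts per library. Neo1 levels were 0.77, 1.43 and 1.28 CPM in Ctrl and 1.34, 1.52 and 1.12 CPM in cKO, and the groups overlapped. The log2 fold change of 0.18 had an interval from -0.70 to 1.05 (adjusted p = 0.85), which includes a change of the size fitted for Trpc6.

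Of the genes for adhesion and the cytoskeleton, Ctnnal1 rose and Vwf did not pass the test. Ctnnal1 encodes alpha-catulin, a relative of alpha-catenin and vinculin (ENSMUSG00000038816, chr4:56810935-56865188, minus strand). Ctnnal1 was at 21.0, 18.2 and 16.9 CPM in Ctrl and at 26.3, 25.1 and 27.9 CPM in cKO. The groups were separate, and the rise was the smallest of the 5, with a log2 fold change of 0.50 (SE 0.12, interval 0.26 to 0.75, adjusted p = 0.014). Without AI56 the adjusted p was 0.074, and without AH74 it was 0.059.

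Vwf encodes von Willebrand factor, the large adhesive glycoprotein that tethers platelets and marks stem cells biased towards platelet production (ENSMUSG00000001930, chr6:125546774-125686679, plus strand). Vwf levels were 23.5, 39.5 and 29.5 CPM in Ctrl and 33.5, 32.0 and 35.8 CPM in cKO. All 3 cKO mice lay within the range of the Ctrl mice, in which the coefficient of variation was 26.3%, against 5.79% in cKO. The log2 fold change was 0.12 (SE 0.15, adjusted p = 0.69), and its interval from -0.19 to 0.43 lies below the fitted change of every member that rose.

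Pdzk1ip1 encodes MAP17, a small membrane protein that binds PDZ domain scaffolds (ENSMUSG00000028716, chr4:115088708-115093899, plus strand). Pdzk1ip1 was at 8.57, 7.67 and 9.15 CPM in Ctrl and at 15.1, 15.3 and 23.8 CPM in cKO. The Ctrl mice differed little among themselves, and all cKO mice were higher, AH74 most of all. On the log2 scale the difference was 1.10 (SE 0.18, interval 0.71 to 1.48, adjusted p = 0.0017), or 2.14-fold.

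Of the enzymes, Sult1a1 rose and Gda did not pass the test. Sult1a1 encodes a sulfotransferase that moves sulfate from PAPS onto phenols (ENSMUSG00000030711, chr7:126672865-126676432, minus strand). Sult1a1 was at 3.60, 2.62 and 1.86 CPM in Ctrl and at 3.48, 6.42 and 10.7 CPM in cKO. The groups overlapped, since AI02 was slightly below AI03, and the cKO mice were spread widely (coefficient of variation 52.6%). The log2 fold change of 1.36 (SE 0.36, interval 0.60 to 2.12) passed with an adjusted p of 0.031. It fell to 0.89 without AH74 (adjusted p = 0.19) and also missed the threshold without AI54 (0.062), AI56 (0.13) or AI55 (0.087). The last 61 bases of Sult1a1 exon sequence, 4.05% of the total, overlap Sgf29 on the other strand, and the fitted difference of Sgf29 was 0.056 (adjusted p = 0.78).

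Gda encodes guanine deaminase, which turns guanine into xanthine (ENSMUSG00000058624, chr19:21391307-21473445, minus strand). Gda levels were 16.3, 19.6 and 16.3 CPM in Ctrl and 16.6, 16.8 and 17.5 CPM in cKO. All cKO mice lay between the lowest and the highest Ctrl mouse. Its log2 fold change was -0.042 (SE 0.12, interval -0.31 to 0.22, adjusted p = 0.88).

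Eya2, a phosphatase and coactivator that works with homeobox proteins of the sine oculis family (ENSMUSG00000017897, chr2:165595032-165771727, plus strand), was at 20.7, 13.3 and 18.0 CPM in Ctrl and at 22.0, 21.7 and 18.8 CPM in cKO. AI54 was the lowest mouse, and AH74, the lowest cKO mouse, was below AI03. Its log2 fold change was 0.28 (SE 0.15, interval -0.042 to 0.60, adjusted p = 0.29).

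**Figure D2:**
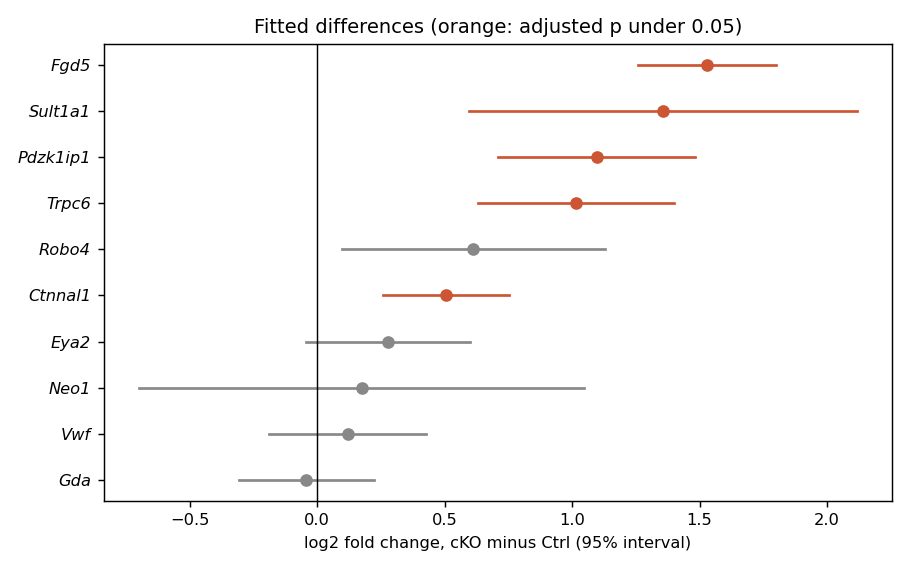
Fitted log2 fold change of cKO minus Ctrl (horizontal axis) with its 95% interval for the 10 genes, in orange where the adjusted p was under 0.05. The 5 genes that passed lie between 0.50 and 1.53, and Gda at -0.042 is the only one with a value below 0.

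The 4 members without overlap between the groups were all higher in cKO. Over all genes tested, 27.3% showed no overlap, 14.0% with cKO higher and 13.4% with cKO lower. Within the library series, 8 of 10 members were higher in cKO in both, against 31.8% of all genes, but the size often differed. Fgd5 was 1.45 higher on the log2 scale in the first series and 1.61 in the second. Sult1a1 was 0.38 and 2.21 higher, Pdzk1ip1 0.82 and 1.49, Trpc6 0.73 and 1.32, and Ctnnal1 0.29 and 0.67. Of the genes that did not pass, Robo4 was 0.078 higher in the first series and 1.15 in the second, while Vwf was 0.48 and 0.070 higher. The median over the members was 0.43 in the first and 0.91 in the second. With the series as a covariate, 5 members were again higher. The only cKO mouse of the second series is AH74, which is also the oldest, so that series, age and mouse cannot be told apart for it.

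**Figure D3:**
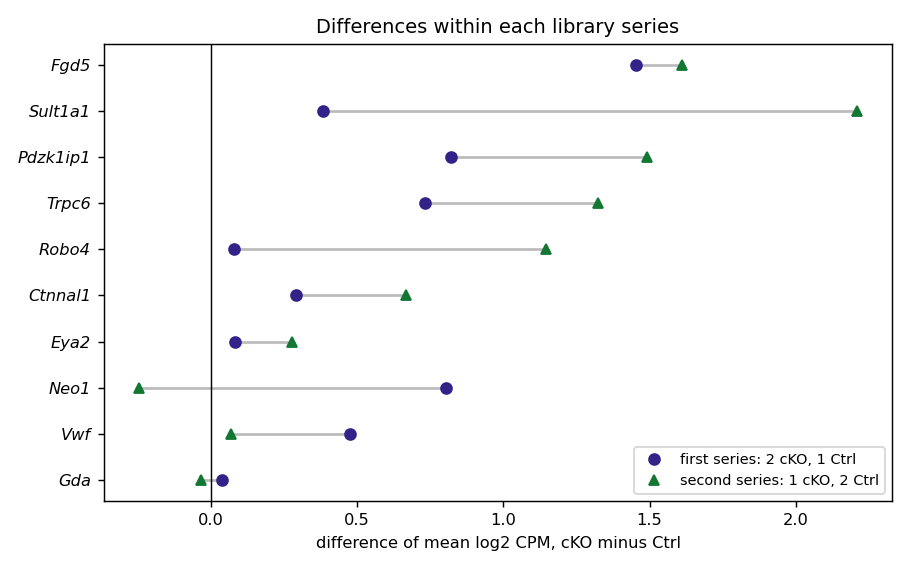
Difference of mean log2 CPM, cKO minus Ctrl (horizontal axis), in the first library series (circles, 2 cKO mice and 1 Ctrl) and the second (triangles, 1 cKO mouse and 2 Ctrl) for each gene. Fgd5 is nearly alike in both, whereas Sult1a1 moves from 0.38 to 2.21 and Robo4 from 0.078 to 1.15.

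Per kilobase of exon, the order of the genes differed between the groups. In Ctrl, Eya2 had the highest level (5.85 ± 1.25 CPM per kilobase, SD, n = 3), followed by Pdzk1ip1 (4.76 ± 0.42) and Trpc6 (3.82 ± 0.92). The values of these neighbours in the order overlapped. Fgd5 was in place 6 with 2.05 ± 0.33, among Gda, Ctnnal1, Vwf, Sult1a1 and Robo4, which all had means between 1.48 and 2.84. In cKO, Pdzk1ip1 came first (10.2 ± 2.78), before Trpc6 (7.75 ± 1.48) and Eya2 (7.04 ± 0.60), and Fgd5 was in place 4 with 5.88 ± 0.30. The first 3 overlapped in turn, while all Fgd5 values lay below those of Eya2. Sult1a1 moved from place 8 to 5 and Gda from 4 to 7. Neo1 was last in both groups, at 0.16 ± 0.047 and 0.18 ± 0.027.

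**Figure D4:**
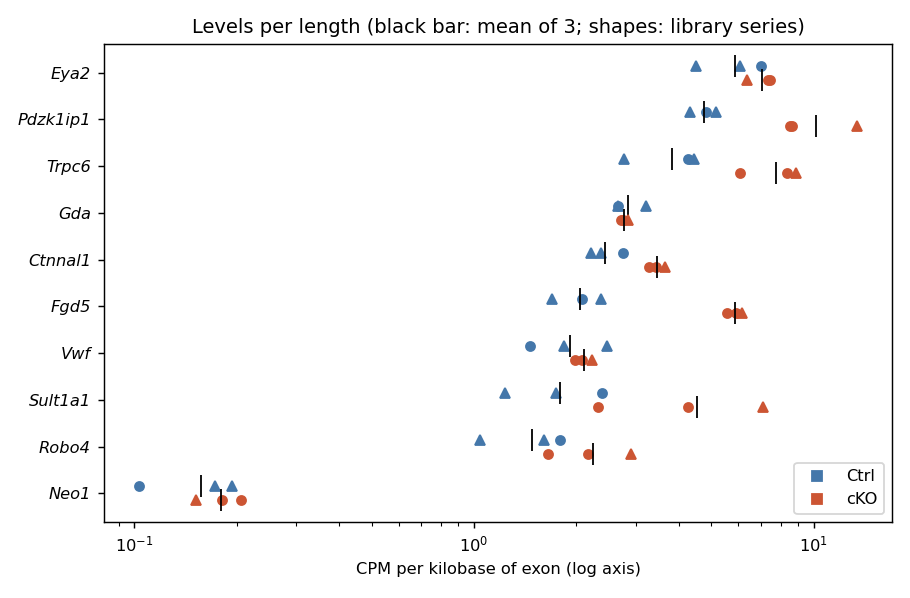
Level of each gene in CPM per kilobase of exon (horizontal log axis) in Ctrl (blue) and cKO (orange) mice, with the library series as circles and triangles and group means as black bars. Eya2 is highest in Ctrl at 5.85 and Pdzk1ip1 in cKO at 10.2, with Neo1 far below the rest in both.

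Summed over the 10 genes, the level was 128, 131 and 123 CPM in Ctrl and 181, 188 and 213 CPM in cKO, 1.53 times as much. Without Fgd5 the ratio was 1.37. The 5 genes that did not pass summed to 72.8 ± 4.93 CPM in Ctrl and 82.1 ± 2.64 CPM in cKO, a ratio of 1.13. Deviations from the group means were positively correlated for 21 of the 45 pairs of members (median r -0.044), and for 7 of the 10 pairs among the genes that rose (median r 0.42), over the same 6 libraries for every pair.

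The pattern of other LT-HSC genes was read from a wider list of 34 genes, of which 29 were tested. In cKO 8 rose and 0 fell (0 lower with DESeq2, and 1, Sqor, at an unadjusted p under 0.05), and the median log2 fold change of the list was 0.29. Over all genes tested, 3.88% rose and 3.79% fell. Procr, the protein C receptor used to sort stem cells, rose by 1.43 on the log2 scale (4.81 ± 1.03 to 13.0 ± 1.67 CPM, adjusted p = 3.6e-04). Esam, a cell adhesion molecule of endothelium and stem cells, rose by 1.19 (9.66 ± 2.52 to 22.2 ± 5.76 CPM, adjusted p = 0.0017), and Cdkn1c, the CDK inhibitor p57 of quiescent cells, by 1.12 (2.42 ± 0.44 to 5.31 ± 0.98 CPM, adjusted p = 0.017). The others were Fgfr3, a receptor for fibroblast growth factors (1.34), Tgm2, a transglutaminase that crosslinks proteins (1.29), Trim47 (1.04), Pde1b, a phosphodiesterase (0.71), and Ltbp3, a latent TGF-beta binding protein (0.49). All 8 had no overlap between the groups. Over the whole list this held for 12 of the 29 tested genes, Sqor among them with cKO lower, against 27.3% of all genes. Slamf1, which encodes the stem cell marker CD150 and is named after its values were seen, was at 12.9, 14.1 and 14.8 CPM in Ctrl and 13.3, 14.1 and 14.0 CPM in cKO, a log2 fold change of -0.015 (SE 0.13). With the library series as a covariate its sign turned, to 0.021. Leaving out AI55 or AH74 left 5 and 4 genes higher. Procr, Esam, Tgm2 and Trim47 stayed past the threshold in each of 14 other settings, Cdkn1c and Ltbp3 in 11, Fgfr3 in 10 and Pde1b in 9.

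**Figure D5:**
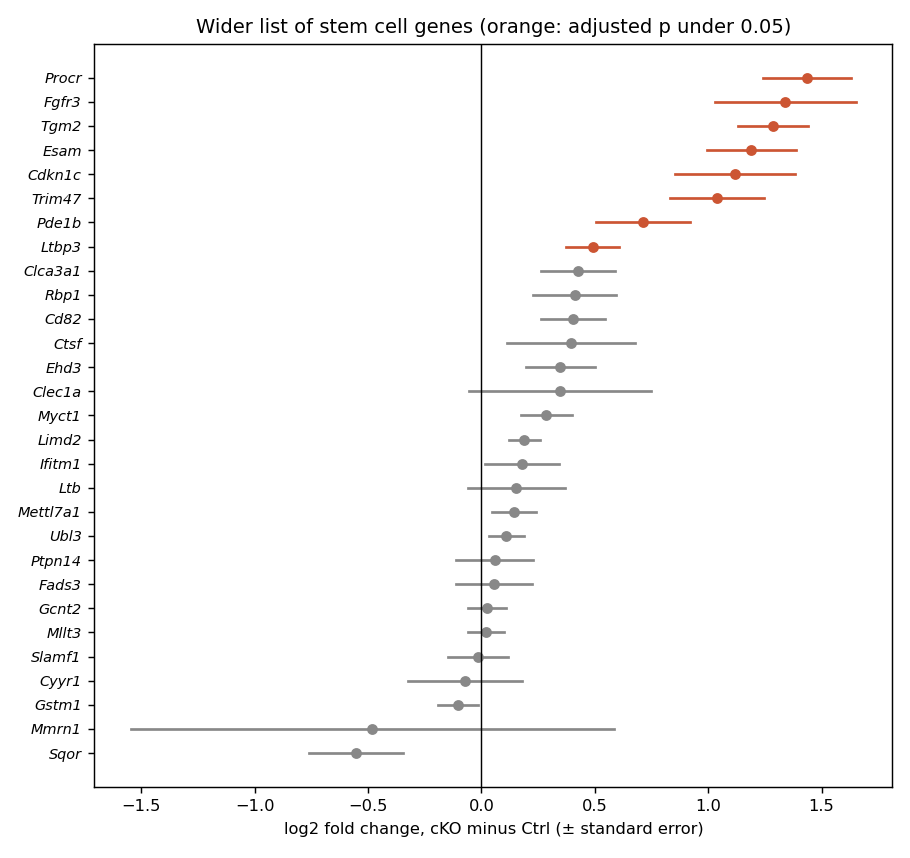
Fitted log2 fold change of cKO minus Ctrl with its standard error (horizontal axis) for the 29 tested genes of the wider LT-HSC list, in orange where the adjusted p was under 0.05. The 8 genes that passed lie between 0.49 (Ltbp3) and 1.43 (Procr), and the others lie between -0.55 (Sqor) and 0.43 (Clca3a1), with Mmrn1 the least certain.

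Relatives of the members were measured in part. Of 30 paralogues, 10 were tested, and 5 rose and 0 fell (0 also with DESeq2 and at an unadjusted p under 0.05). The shares over all genes tested were 3.88% and 3.79%. Robo3, the Roundabout receptor encoded beside Robo4, was at 4.90, 5.29 and 4.09 CPM in Ctrl and 12.2, 11.5 and 11.8 CPM in cKO. The cKO mice were alike and all above the Ctrl mice, with a log2 fold change of 1.31 (SE 0.18, adjusted p = 3.4e-04). Eya1, a relative of Eya2, rose by 0.72 (adjusted p = 0.0028). The rises of Vcl (0.34), Fgd3 (0.34) and Ctnna1 (0.27) were smaller, and none of the tested paralogues belongs to the Trpc or Sult families. Among 31 ligands, partners and enzymes of the same steps, 17 were tested. Of these, 3 rose, 1 fell and 13 did not pass, with a median log2 fold change of 0.069. Kdr, the VEGF receptor with which Fgd5 is known to act, rose by 1.90 from 0.95 ± 0.43 to 3.57 ± 0.72 CPM (adjusted p = 0.0069), and Bmpr2, a BMP receptor of the neogenin pathway, by 0.46 (adjusted p = 8.7e-04). The PAPS synthases that supply Sult1a1 with sulfate moved in opposite directions. Papss1 rose by 0.35 (adjusted p = 0.049) and Papss2 fell by 1.33 on the log2 scale, from 8.72 ± 1.90 to 3.42 ± 1.09 CPM (adjusted p = 0.0049). Fgd3 and Ctnna1 passed in 6 and Papss1 in 5 of the 14 other settings.

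Genes near the members were compared to see whether whole stretches moved. Of 25 tested genes within 100 kb, 2 were higher and 0 lower with edgeR, against 3.88% and 3.79% of all genes. With DESeq2, 1 was lower. At an unadjusted p under 0.05 with edgeR, 2 were lower (Bola2 and Zmynd8) and 6 higher. Robo3 lies 1.65 kb from Robo4 on the opposite strand. Apobr, 83.8 kb from Sult1a1, differed by 0.82 on the log2 scale (adjusted p = 2.5e-04). Around Sult1a1, 10 of the 11 tested neighbours had a positive log2 fold change, with a median of 0.30. At an unadjusted p under 0.05, 5 were higher, against 22.9% of all genes in either direction. Of these 11, Apobr alone passed the adjusted threshold. Positive log2 fold changes were found for 15 of the 25 neighbours and for 7600 of the 15184 genes tested. Tal1, the stem cell transcription factor encoded 17.0 kb from Pdzk1ip1 and named after its values were seen, had a log2 fold change of -0.049 (SE 0.073, adjusted p = 0.75). The 3 tested genes around Fgd5 had a median of -0.022, and no gene near Neo1, Gda or Trpc6 was tested.

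The genes most like the mean standardised level of the members over the 6 libraries were Gimap5, Arvcf, Kdm3a, Pea15a and Zfp599, with Pearson's r between 0.989 and 0.991 among 9515 genes compared. All libraries share the group difference, and no p is given. Of these 5, Gimap5 (1.36, adjusted p = 7.5e-05) and Arvcf (0.54, adjusted p = 0.043) passed the test between the groups.

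Many transcripts of granulocyte-monocyte and erythroid cells fell in the LSK fraction, and their part in the values above was not tested. For the lists below, the shares over all genes tested were 3.88% higher and 3.79% lower in cKO. Of 10 granulocyte-monocyte genes, 9 fell, and the summed level of the 10 was 3008 to 3617 CPM in Ctrl and 531 to 857 CPM in cKO. Mpo, the myeloperoxidase of primary granules, fell by 2.89 in log2 units (adjusted p = 1.6e-08). Of 8 tested erythroid genes 6 fell, with a sum of 473 to 523 CPM in Ctrl and 293 to 343 CPM in cKO, and Car1, a carbonic anhydrase, fell by 5.72 (adjusted p = 5.6e-10). Among 12 genes of multipotent and lymphoid-primed progenitors 4 fell, Dntt, Il7r and Il12a among them, from a sum of 1542 to 2125 CPM in Ctrl to 1208 to 1356 CPM in cKO. The megakaryocyte list, which bears on Vwf, had 10 tested genes, of which Itgb3 rose and Pf4 and Thbs1 fell, with sums of 170.0 to 203 CPM in Ctrl and 157 to 227 CPM in cKO.

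The endothelial list bears on Fgd5, Robo4, Esam and Kdr, which endothelial cells also express. Of its 12 genes 8 were tested, and Kdr, Flt4 and Tie1 rose while Pecam1 fell. Over all genes tested, 3.88% rose and 3.79% fell. Flt4 (adjusted p = 0.047) passed in 5 of 14 other settings and Kdr in 12 of 13, while Tie1 and Pecam1 passed in all 14. The summed level was 187 to 195 CPM in Ctrl and 192 to 203 CPM in cKO. Of the other genes of the list, Egfl7 had 322 to 595 counts per library, Emcn 75 to 149, Plvap 46 to 78 and Flt1 6 to 29, none of them past the threshold, while Cdh5, Cldn5, Stab2 and Ptprb had at most 11 counts and were not tested. The part of endothelial cells in these values was not tested. Of 3 tested stromal genes, Pdgfrb rose and Cxcl12 and Col1a2 fell, with sums of 34.7 to 42.3 and 48.1 to 60.9 CPM. Of 4 tested B cell genes, Vpreb1 and Jchain fell, with sums of 20.1 to 28.9 and 18.9 to 22.3 CPM. Vpreb1 passed in 7 of 13 other settings and Jchain in all 13. Of the 4 tested genes of the gate, Itgam was the one past the threshold. None of 15 genes of cycling cells passed the edgeR test (3 at an unadjusted p under 0.05, and 1 with DESeq2). Their median log2 fold change was -0.0072, with sums of 3158 to 3485 CPM in Ctrl and 3234 to 3623 CPM in cKO.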

How the data were processed

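LSK cells were sorted from 3 Ctrl and 3 cKO mice, and their RNA was sequenced as single reads from a stranded total RNA kit. The authors aligned the reads to mm10 with GSNAP 2015-12-31 and deposited raw counts per gene, made with featureCounts 1.5.0 on the strand of the gene (minimum mapping quality 1), for 45706 genes. Versions are those of the submitters' processing notes. Gene coordinates and exon lengths come from the deposited table and symbols from GENCODE M21.

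The counts were tested with edgeR 4.0.16 (R 4.3.3; TMM, filterByExpr, quasi-likelihood test, genotype as the only term), fitted on all genes, with Benjamini-Hochberg adjustment and a threshold of 0.05. Standard errors follow from the F statistic, as the size of the log2 fold change over the root of F. Total counts lay between 13003573 and 21277519 per library, so that 1 count equals 0.0477 to 0.0765 CPM. Log2 CPM used a prior count of 2. The procedure was tested on simulated data. Replicates are separate mice.

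The members and lists were chosen with earlier results of these data known. Named genes are all members, Setd1b, genes of the other lists past the threshold, such genes within 100 kb of a member, and the 5 genes most like the members with at least 10 CPM. Every other gene named was chosen after its values were seen, and a few items are not reported here. Alternatives were DESeq2 1.42.0 and its size factors, other filters, the library series as a covariate, removal of a length trend (loess, span 0.3) or of ribosomal and mitochondrial genes, a threshold of 0.01, and leaving out each mouse.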

Additional observations from a re-analysis of the deposited data

How the results depend on the processing

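Under all 14 alternatives Fgd5, Pdzk1ip1 and Trpc6 stayed past the threshold, Ctnnal1 did so under 11 and Sult1a1 under 9, and these 5 kept their direction. At a threshold of 0.01, 3 members and 4 genes of the wider list were higher. Leaving out 1 mouse at a time gave 3 to 5 members higher and 0 lower, and 4 to 9 genes of the wider list higher and 0 to 1 lower (Sqor without AI54, Mmrn1 without AI55). Without a filter on low counts 6 members were higher, Robo4 being added. Over all genes the counts of higher and lower genes were 241 and 272 at the threshold of 0.01, 809 and 873 without a filter, and as few as 296 and 308 when a mouse was left out, in place of 589 and 575.

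Log2 fold changes near 0 changed sign in some settings. When mice were left out in turn, they ran from -0.037 to 0.34 for Vwf, from -0.029 to 0.36 for Neo1, from -0.093 to 0.056 for Gda, from -0.066 to 0.029 for Slamf1, from -0.13 to 0.065 for Kit and from -8.00 to 0.098 for Mmrn1. Slamf1 was at 0.021 with the library series as a covariate. The cause was not tested. No paired analysis was possible because the labels give no replicate numbers and the mice were numbered in accession order.

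With 3 mice per group, an exact permutation test cannot go below 0.1. Of the wider list, 5 genes did not pass the filter on low counts.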

Other observations

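Mmrn1, a gene of the wider LT-HSC list that encodes multimerin, had 0 counts in AI02 and AI03 and 1 count in AH74, but 314, 360 and 263 counts in AI54, AI55 and AI56. The split crossed both the groups and the library series. The fitted log2 fold change of Mmrn1 between the groups was -0.48 (SE 1.07), and the cause of the split was not tested.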
